A study of Homo sapiens with 12 samples.

Results

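YBX1, YBX3, NCL, SYNCRIP, ELAVL1, PCBP1, PCBP2, ALYREF and FMR1 encode RNA-binding proteins that have been linked to the sorting of RNA into secreted vesicles. These 9 genes were named as a list, and their mRNA counts were followed in all 12 libraries of the series. Heterogeneous nuclear ribonucleoprotein (hnRNP) genes were kept apart only where their symbol begins with HNRNP. All 9 were listed both among the 11973 genes counted in exosomes and among the 15381 genes counted in cells, 11940 of which were common to both. The RNA came from AC16, an established human line made by fusing ventricular cardiomyocytes with transformed fibroblasts, and from the exosomes that AC16 cells release. There were 4 groups of 3 libraries: exosomes labelled Ang, exosomes labelled Con, whole cells labelled Ang and whole cells labelled Con. The labels do not spell out Ang or Con and name no agent, dose or time. The stated purpose was to find small RNAs of exosomes from hypertrophic cardiomyocytes and the RNA-binding proteins that bind them. Every value below is a level of the mRNA that encodes a protein, not of the protein.

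Cells export small RNAs and mRNA fragments in vesicles that bud into late endosomes or from the plasma membrane, and RNA-binding proteins that recognise short sequences are thought to carry part of this cargo. YBX1 binds many cytoplasmic mRNAs and has been shown in human cell lines to be needed for the release of certain microRNAs in exosomes. SYNCRIP was described as a microRNA sorting factor in mouse hepatocytes, and ALYREF in mouse cells. The mRNAs of such proteins can themselves be vesicle cargo, which is what these counts measure.

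Gene reads numbered 535442 to 587783 per library in Ang exosomes and 717263 to 745311 in Con exosomes. Cells were deeper, with 9202471 to 10623090 in Ang and 9442962 to 11212674 in Con. Exosome RNA was isolated with exoRNeasy Maxi and sequenced after SMARTer Stranded Total RNA preparation, whereas cell RNA was isolated with miRNeasy Micro and sequenced after VAHTS Universal V6 preparation, per the labels' protocols. Vesicle origin and kit therefore cannot be told apart in any exosome value set against a cell value. Nothing states that replicates were grown as separate cultures, so a p-value here speaks for the spread among libraries, which may be technical. Fibroblast genes were abundant, with COL1A1 at means of 2533, 2479, 2739.5 and 3120.0 CPM (gene reads scaled to a common library size) in Ang exosomes, Con exosomes, Ang cells and Con cells. Of 6 cardiomyocyte markers, 4 were nearly absent: in cells TNNT2 had 0 to 9 reads, TNNI3 8 to 20 and NKX2-5 0 to 4, and MYL7 was not listed. The sarcomere gene ACTN2 had 18 to 36 reads in cells, and the cardiac transcription factor GATA4 was detected, with 239 to 335. Of the markers of other cell types, CD3E, CDH5, ALB and PPBP were not listed in either compartment, PTPRC had 6 to 25 reads in cells, and PECAM1 had 0 to 5 reads in exosomes and 14 to 19 in cells. VWF had 0 reads in Ang exosomes, 0 to 7 in Con exosomes and 18 to 35 in cells. The haemoglobin genes HBA1 and HBB had 0 reads in Ang exosomes and at most 13 and 7 in Con exosomes; in cells HBA1 had 0 to 2, HBB was not listed and PF4, which was not listed in exosomes, had 0 to 4. The macrophage gene CD68 was the only tested immune marker (log2 1.75, SE 0.67, adjusted p = 0.0618 by edgeR, exosomes over cells). Of the 5 vesicle genes CD63, CD81, CD9, PDCD6IP and TSG101, none was higher in exosomes and PDCD6IP was lower.

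YBX1 and NCL mRNA stood out from the other 7 genes. Their RefSeq promoters (build GRCh38.p14) are shown because the pair differed from the rest between exosomes and cells, and because Y-box proteins were named for binding the inverted CCAAT box. Each sequence is the 250 bases before the annotated start, read 5′ to 3′ on the gene's strand, with every CCAAT or its reverse complement ATTGG in capitals. The YBX1 promoter lies on the plus strand at chr1:42682168-42682417 and the NCL promoter on the minus strand at chr2:231464485-231464734.
YBX1: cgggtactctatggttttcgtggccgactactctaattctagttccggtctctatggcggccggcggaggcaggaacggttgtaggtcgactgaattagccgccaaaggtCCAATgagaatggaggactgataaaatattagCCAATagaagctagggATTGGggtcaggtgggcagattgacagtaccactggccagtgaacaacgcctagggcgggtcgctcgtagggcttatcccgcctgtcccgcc
NCL: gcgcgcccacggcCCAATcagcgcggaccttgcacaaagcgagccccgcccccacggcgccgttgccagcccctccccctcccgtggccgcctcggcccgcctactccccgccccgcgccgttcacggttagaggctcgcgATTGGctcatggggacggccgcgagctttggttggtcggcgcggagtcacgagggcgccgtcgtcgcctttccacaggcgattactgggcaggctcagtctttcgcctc
The YBX1 window held 3 such words, which began 140, 108 and 92 bases before the start, and the NCL window held 2, which began 237 and 109 bases before it. YBX3 and ALYREF held 1 each, and SYNCRIP, PCBP1, PCBP2 and FMR1 held 0. ELAVL1 had no entry in the table. Among 27305 promoters of the same length, 33% held at least 1 CCAAT word on either strand and 3.09% held 3 or more. These matches describe letters only.

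In exosomes, 4 of the 9 mRNAs were higher than in cells and none was lower: YBX1, NCL, PCBP1 and PCBP2. YBX1 and NCL were each more than 4-fold higher, PCBP1 was 1.61-fold higher and PCBP2 1.19-fold higher. The PCBP2 call was lost with raw library totals, and also when same-numbered exosome and cell libraries were treated as pairs. The other 5 (YBX3, ELAVL1, ALYREF, FMR1 and SYNCRIP) did not pass an adjusted p of 0.05 in edgeR's quasi-likelihood test. Among all 11811 genes tested, 37.1% passed that threshold, 17.6% higher and 19.5% lower. The median log2 difference was 0.41 over the 9 genes and -0.15 over all genes tested, and with raw library totals it was 0.20 over the 9 and -0.36 over all. These levels are scaled shares of gene reads, not amounts per vesicle. In bulk RNA, a higher share in exosomes may reflect more vesicles that hold the mRNA, more copies per vesicle or the different kits, among others. These cannot be told apart.

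YBX1, on chromosome 1 (42682427 to 42702349, GRCh38), encodes a cold-shock domain protein that packages cytoplasmic mRNA and controls its translation and stability. YBX1 stood at 4327, 3880 and 4291 CPM in Ang exosomes, 4313, 4059 and 3994 CPM in Con exosomes, 855, 681 and 1112 CPM in Ang cells and 1132, 909 and 609 CPM in Con cells. All 6 exosome libraries lay above all 6 cell libraries. They were also close to each other, with a coefficient of variation of 4.61% over the 6 exosome libraries against 24.4% over the 6 cell libraries. The difference was 4.69-fold (log2 2.23, SE 0.15, 95% interval 1.91 to 2.55, edgeR adjusted p = 3.25e-07), which put YBX1 at rank 283 of 11811 genes from the highest. It was nearly the same within each label, with log2 2.24, SE 0.21 in Ang (adjusted p = 1.66e-05, edgeR) and log2 2.22, SE 0.21 in Con (adjusted p = 1.8e-05, edgeR). YBX1 is hard to count uniquely, as 10 processed pseudogenes carry its name in GENCODE release 29. Of the 50-base words of its principal transcript, 41.4% also occur in transcripts of other genes. Such shares, here and below, are of the longest principal transcript of a gene, with matches on either strand counted. How reads with several possible origins were handled is not given in the sources used here, so the YBX1 values are uncertain to that extent.

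YBX3, on chromosome 12 (10699089 to 10723312), encodes a Y-box protein closely related to YBX1 that also binds mRNA through a cold-shock domain. Its level was 532, 533 and 94.1 CPM in Ang exosomes, 501, 409.6 and 347 CPM in Con exosomes, 299, 275 and 282 CPM in Ang cells and 276, 272 and 278 CPM in Con cells. The third Ang exosome library, with 47 reads, lay 4.84-fold below the median of the 6 exosome libraries and below every cell library. The other 5 exosome libraries, with 231 to 348 reads, all lay above the cells. With all libraries the difference did not pass the threshold (log2 0.52, SE 0.31, 95% interval -0.15 to 1.19, edgeR adjusted p = 0.203). Without the third Ang exosome library it was log2 0.75 and passed (adjusted p = 0.000334, edgeR). With all libraries and raw library totals it was log2 0.31 (adjusted p = 0.440, edgeR).

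NCL, on chromosome 2 (231453531 to 231483641), encodes nucleolin, a nucleolar protein of ribosomal RNA synthesis that also binds mRNAs and the microRNA processing complex. NCL was at 7646, 7082 and 7560.5 CPM in Ang exosomes, 7219.9, 7214 and 4242 CPM in Con exosomes, 1375, 1463 and 1564 CPM in Ang cells and 1591, 1635 and 1720.2 CPM in Con cells. The third Con exosome library was the lowest of the exosome libraries, but it still lay above every cell library. Exosomes exceeded cells 4.37-fold (log2 2.13, SE 0.11, 95% interval 1.88 to 2.37, edgeR adjusted p = 3.49e-08), at rank 318 of 11811. The difference was log2 2.34, SE 0.16 in Ang (adjusted p = 1.09e-06, edgeR) and log2 1.92, SE 0.16 in Con (adjusted p = 5.79e-06, edgeR). Only 0.402% of the 50-base words of NCL occur in transcripts of other genes.

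PCBP1 and PCBP2 encode poly(C)-binding proteins with KH domains, which stabilise cytosine-rich mRNAs and act in translation control. PCBP1 is an intronless gene on chromosome 2 (70087454 to 70089203), and PCBP2 lies on chromosome 12 (53452102 to 53481162). A 33-base stretch upstream of both genes is shown because it is the best-scoring ungapped match between the bases searched upstream of them. The PCBP1 bases were cut at its gene start in GENCODE release 29, where the match ends. Capitals mark the 29 identical bases, at chr2:70087421-70087453 for PCBP1 and chr12:53452041-53452073 for PCBP2, both on the plus strand of GRCh38.p14.
PCBP1: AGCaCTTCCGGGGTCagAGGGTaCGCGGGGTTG
PCBP2: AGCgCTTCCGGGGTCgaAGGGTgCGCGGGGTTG
The identical part includes TTCCGG, the reverse complement of the ETS core CCGGAA, which 14.8% of the 27305 promoters held within 250 bases on either strand. PCBP1 had 163, 226 and 246 CPM in Ang exosomes, 174, 201 and 164 CPM in Con exosomes, 121, 121 and 112 CPM in Ang cells and 122, 127 and 122 CPM in Con cells. Every exosome library exceeded every cell library, and the difference was log2 0.69, SE 0.13 (95% interval 0.41 to 0.97, edgeR adjusted p = 0.00129). PCBP2 had 745, 805 and 749 CPM in Ang exosomes, 872, 879 and 941 CPM in Con exosomes, 758, 615 and 733 CPM in Ang cells and 688, 739.8 and 663 CPM in Con cells. Here the exosome and cell libraries overlapped, and the smaller difference of log2 0.25, SE 0.076 passed (95% interval 0.081 to 0.41, edgeR adjusted p = 0.0227). Scaled to raw library totals, the PCBP2 difference was log2 0.03 and did not pass (adjusted p = 0.762, edgeR). That scaling placed the median of all genes at log2 -0.36, against -0.15 with the trimmed mean scaling, while YBX1, NCL and PCBP1 still passed. Reads of this pair are shared with other annotated transcripts, since 65.7% of the 50-base words of PCBP2 also occur in other genes' transcripts (58% in AC023509.1). For PCBP1 the share was 46.9%, nearly all with PCBP1-AS1, which is annotated on the opposite strand. PCBP1 and PCBP2 had no 50-base word in common.

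ALYREF, on chromosome 17 (81887844 to 81891586), encodes an adaptor of the TREX complex that hands spliced mRNA to the export receptor and reads 5-methylcytosine. ALYREF was at 85.4, 154 and 128 CPM in Ang exosomes, 106, 170.3 and 101 CPM in Con exosomes, 97.5, 94.9 and 99.6 CPM in Ang cells and 94.4, 89.3 and 85.5 CPM in Con cells. The exosome libraries spanned a wider range, 44 to 116 reads, and overlapped the cells. The difference was log2 0.41, SE 0.18 (edgeR adjusted p = 0.0896). It passed without the first Ang exosome library (log2 0.51, adjusted p = 0.0265, edgeR). Over all 12 leave-outs it ran from log2 0.26 to 0.51, with edgeR adjusted p up to 0.214. With raw library totals it was log2 0.20 and did not pass (adjusted p = 0.395, edgeR).

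ELAVL1, on chromosome 19 (7958579 to 8005659), encodes HuR, which binds AU-rich elements and stabilises mRNAs. It had 58.2, 86.3 and 88.1 CPM in Ang exosomes, 77.7, 88.1 and 87.1 CPM in Con exosomes, 37.0, 52.7 and 73.5 CPM in Ang cells and 86.2, 58.0 and 58.9 CPM in Con cells, from 30 to 60 reads in an exosome library. Ang exosome 1 and the first Con cell library crossed over the other compartment's range, and the difference was log2 0.41, SE 0.21 (edgeR adjusted p = 0.135). It passed without the third Ang cell library (log2 0.58, adjusted p = 0.0444, edgeR). Over all 12 leave-outs it ran from log2 0.33 to 0.58, with edgeR adjusted p up to 0.224. With raw library totals it was log2 0.20 and did not pass (adjusted p = 0.455, edgeR).

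SYNCRIP, on chromosome 6 (85607785 to 85643792), encodes hnRNP Q, a cytoplasmic RNA-binding protein of mRNA transport and translation. SYNCRIP was at 239, 206 and 288 CPM in Ang exosomes, 345, 335 and 10.5 CPM in Con exosomes, 315, 274 and 302 CPM in Ang cells and 260.4, 272 and 288 CPM in Con cells. The third Con exosome library held 7 reads, 25.1-fold below the median of the 6 exosome libraries, whereas the other 5 held 112 to 240 reads. The difference was log2 -0.26, SE 0.49, with a 95% interval of -1.34 to 0.81 (edgeR adjusted p = 0.700). Without that library it was log2 0.0098, so the direction of the SYNCRIP value rested on 1 library.

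FMR1, on the X chromosome (147911951 to 147951125), encodes a protein that represses translation of its bound mRNAs and is lost in fragile X syndrome. It had 75.7, 107 and 52.1 CPM in Ang exosomes, 51.8, 63.1 and 79.6 CPM in Con exosomes, 47.8, 53.5 and 95.1 CPM in Ang cells and 55.2, 100.2 and 96.9 CPM in Con cells. The exosome and cell ranges overlapped over most of their length, with 26 to 58 reads in an exosome library. The difference was log2 -0.059, SE 0.25 (95% interval -0.61 to 0.49, edgeR adjusted p = 0.873). FMR1 was the only one of the 9 with no 50-base word in any other gene's transcripts.

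**Figure D1:**
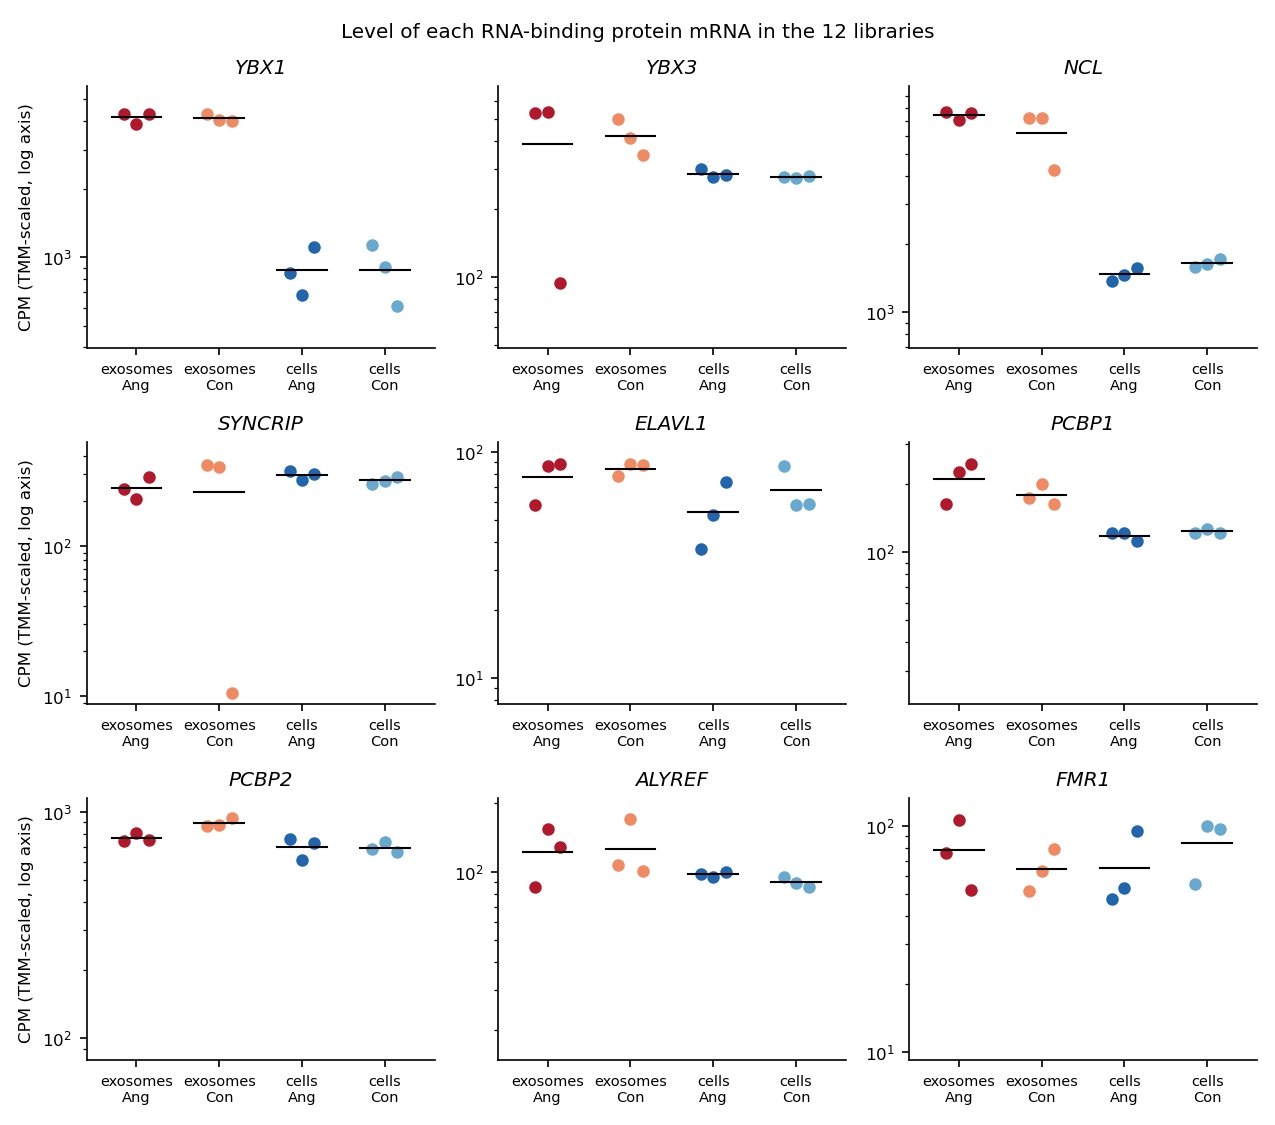
Level of each mRNA in each library, in CPM scaled by trimmed mean of M-values on a log axis, for Ang exosomes, Con exosomes, Ang cells and Con cells (points: libraries, n = 3 per group; lines: group means). YBX1 and NCL exosome libraries lie above all cell libraries, and single low exosome libraries appear for SYNCRIP (10.5 CPM) and YBX3 (94.1 CPM).

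YBX1, NCL and PCBP1 were thus the 3 of 9 genes whose exosome libraries did not overlap the cell libraries, all on the higher side. Among all genes tested, 10.1% lay higher without overlap and 13.1% lower. Within Ang, 3 of the 9 passed, YBX1, NCL and PCBP1, beside 21.8% of all genes tested. Within Con, 3 of the 9 passed, YBX1, NCL and PCBP2, beside 20.4% of all genes. PCBP1 was log2 0.84, SE 0.18 in Ang (adjusted p = 0.00646, edgeR) and log2 0.54, SE 0.18 in Con (adjusted p = 0.0554, edgeR). PCBP2 was log2 0.13, SE 0.11 in Ang (adjusted p = 0.433, edgeR) and log2 0.37, SE 0.11 in Con (adjusted p = 0.03, edgeR). The Con value for PCBP2 did not pass when the first Con cell library, the third Con cell library or the third Con exosome library was left out (adjusted p = 0.0641, 0.0775 and 0.0733 by edgeR), nor with raw library totals (log2 0.15, adjusted p = 0.342 by edgeR). Whether the Ang and Con values differ is the test of the difference of differences given further on, which none of the 9 passed.

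**Figure D2:**
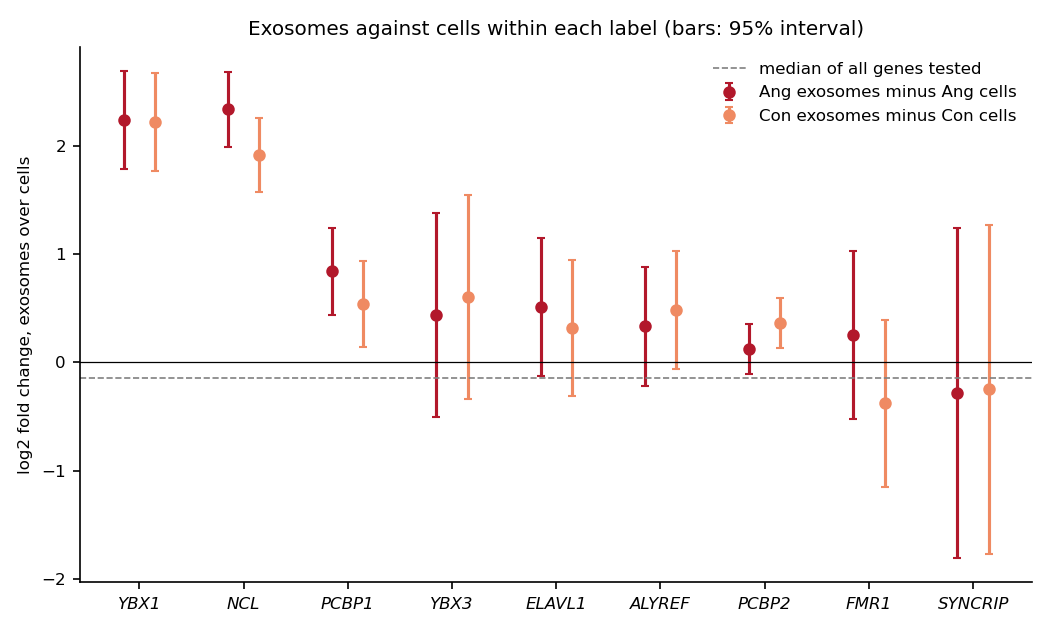
Fitted log2 fold change of exosomes over cells for each mRNA, for Ang and for Con, with 95% intervals, and the median of all genes tested averaged over the labels as a dashed line. YBX1 (2.24 in Ang and 2.22 in Con) and NCL (2.34 and 1.92) lie far above that median, and the intervals of YBX3, ELAVL1, ALYREF, FMR1 and SYNCRIP, and of PCBP2 in Ang, include 0.

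The 9 mRNAs together took 1.21% to 1.29% of gene reads in Ang exosomes, 0.925% to 1.27% in Con exosomes, 0.389% to 0.466% in Ang cells and 0.42% to 0.459% in Con cells. That gap lay in YBX1 and NCL. The pair made up 82.6% to 87.8% of the reads of the 9 genes in exosome libraries and 57.1% to 63.3% in cell libraries. The other 7 genes took 0.154% to 0.198% of all reads in exosomes and 0.159% to 0.181% in cells, and these ranges overlapped.

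The levels can be ordered between genes once they are divided by the length of the principal transcript. On that scale (CPM per kilobase, mean ± SD over 6 libraries) YBX1 led in exosomes with 2737 ± 126, before NCL with 1692 ± 319 and PCBP2 with 571 ± 54.0. After these came YBX3 with 224 ± 93.7, and ALYREF (114 ± 30.3), PCBP1 (112 ± 19.9) and SYNCRIP (78.5 ± 40.8) came next. FMR1 (16.6 ± 4.81) and ELAVL1 (13.5 ± 1.96) came last. Neighbours from YBX3 down to SYNCRIP overlapped within 1 SD, as did FMR1 and ELAVL1, while YBX1, NCL and PCBP2 were each apart from the next. In cells the top 3 were YBX1 with 583 ± 142, PCBP2 with 480.0 ± 37.3 and NCL with 386 ± 30.5. There, by principal transcript, YBX1 and PCBP2 overlapped within 1 SD, and NCL lay below both. Next in cells came YBX3 (156 ± 5.42), SYNCRIP (94.3 ± 6.82), ALYREF (86.0 ± 4.80), PCBP1 (69.1 ± 2.88), FMR1 (17.4 ± 5.79) and ELAVL1 (10.1 ± 2.84). Of these, SYNCRIP and ALYREF overlapped within 1 SD, and so did FMR1 and ELAVL1. The order depends on which transcript is taken: over the union of all annotated exons, PCBP1 (112 CPM per kilobase in exosomes) stood above PCBP2 (105). Over that union in cells, NCL (225) stood above PCBP2 (88.2) and below YBX1 (458). YBX3 then lay below ALYREF in exosomes (46.8 against 78.9) and in cells (32.6 against 59.4).

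Ratios of related genes within a library do not depend on the scaling of libraries. Reads of YBX1 per read of YBX3 were 8.14, 7.28 and 45.6 in Ang exosomes, 8.61, 9.91 and 11.5 in Con exosomes, 2.86, 2.48 and 3.95 in Ang cells and 4.10, 3.34 and 2.19 in Con cells. All exosome libraries lay above all cell libraries. The mean log2 ratio was 1.94 higher in exosomes, 3.83-fold (exact permutation test of 6 against 6 libraries, two-sided p = 0.00216, the smallest the design allows, adjusted over both ratios p = 0.00433). Without the third Ang exosome library the difference was 1.55. PCBP2 reads per PCBP1 read were 4.57, 3.56 and 3.04 in Ang exosomes, 5.01, 4.37 and 5.75 in Con exosomes, 6.25, 5.07 and 6.56 in Ang cells and 5.65, 5.82 and 5.42 in Con cells. The groups overlapped through the third Con exosome library and the second Ang cell library. The mean log2 ratio was lower by -0.43 in exosomes (1.35-fold; exact permutation test of 6 against 6 libraries, two-sided p = 0.013, adjusted p = 0.013). Over both labels together, YBX1 was thus higher relative to YBX3 in exosomes and PCBP2 lower relative to PCBP1. The PCBP2 to PCBP1 ratios of exosomes and cells were apart in Ang (3.04 to 4.57 against 5.07 to 6.56). In Con they overlapped (4.37 to 5.75 against 5.42 to 5.82). The ratios were not tested within a label.

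**Figure D3:**
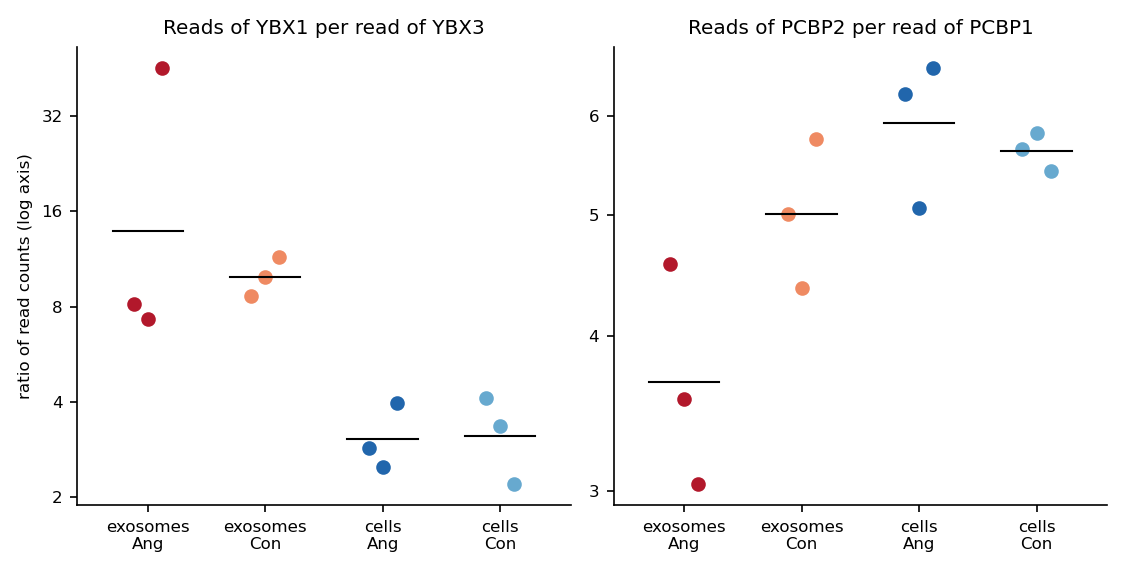
Reads of YBX1 per read of YBX3 and reads of PCBP2 per read of PCBP1 in each library, on log axes (points: libraries, n = 3 per group; lines: geometric means). The YBX1 to YBX3 ratio is 7.28 to 45.6 in exosomes and 2.19 to 4.10 in cells, and the PCBP2 to PCBP1 ratio is 3.04 to 5.75 in exosomes and 5.07 to 6.56 in cells.

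Between Ang and Con, none of the 9 mRNAs passed the threshold in either compartment. In exosomes, 0 of the 9 passed in edgeR, beside 1 of 8327 genes tested (0.0120%), and 316 genes had an unadjusted p under 0.05. DESeq2 called 16 of 8325 genes (0.192%) in exosomes and none of the 9. In cells, 0 of the 9 passed in edgeR, as did 0 of 13331 genes, with 816 genes (6.12%) at an unadjusted p under 0.05. DESeq2 called 60 of 11513 genes (0.521%) in cells and none of the 9.

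In exosomes, YBX1 was the most tightly bounded of the 9, with 4166 ± 248 CPM in Ang and 4122 ± 168 CPM in Con (SD, n = 3 each). Its log2 difference was 0.021 (SE 0.069, 95% interval -0.13 to 0.17). PCBP2 was 766 ± 33.3 CPM in Ang exosomes and 898 ± 38.2 CPM in Con exosomes (SD, n = 3 each), and all 3 Ang libraries lay below all 3 Con libraries. That difference was log2 -0.22, SE 0.11 (95% interval -0.48 to 0.033, edgeR adjusted p = 0.999). It was the only one of the 9 without overlap in exosomes, against 10.1% of all genes. NCL (log2 0.26, SE 0.22), PCBP1 (log2 0.24, SE 0.25) and FMR1 (log2 0.28, SE 0.38) had positive values that did not pass. ELAVL1 (log2 -0.11, SE 0.33) and ALYREF (log2 -0.029, SE 0.34) had negative values that did not pass. SYNCRIP and YBX3, each with a single low library, had wide 95% intervals of -2.63 to 2.82 and -1.70 to 1.47, which reach far to both sides of 0.

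In cells, NCL averaged 1467 ± 94.3 CPM in Ang and 1649 ± 65.8 CPM in Con (SD, n = 3 each), and the groups did not overlap. Its log2 difference was -0.18 (SE 0.057, 95% interval -0.32 to -0.035, unadjusted p = 0.0223, adjusted p = 0.795 by edgeR across all genes), which did not pass. PCBP1 averaged 118 ± 5.57 CPM in Ang cells and 124 ± 2.95 CPM in Con cells, with Ang below Con in every library (log2 -0.075, SE 0.061). ALYREF averaged 97.3 ± 2.37 CPM in Ang cells and 89.7 ± 4.44 CPM in Con cells, with Ang above Con in every library (log2 0.11, SE 0.063). These 3 of 9 genes without overlap stood beside 14.6% of all genes. YBX3 and SYNCRIP, the genes with an outlying exosome library, had small standard errors in cells, at log2 0.042, SE 0.049 and log2 0.11, SE 0.071. YBX1 (log2 -0.0098, SE 0.28), ELAVL1 (log2 -0.32, SE 0.29) and FMR1 (log2 -0.37, SE 0.35) varied most between libraries of 1 group, and their 95% intervals of -0.70 to 0.68, -1.05 to 0.41 and -1.25 to 0.51 left room for changes of either sign. PCBP2 was at log2 0.0024, SE 0.092.

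**Figure D4:**
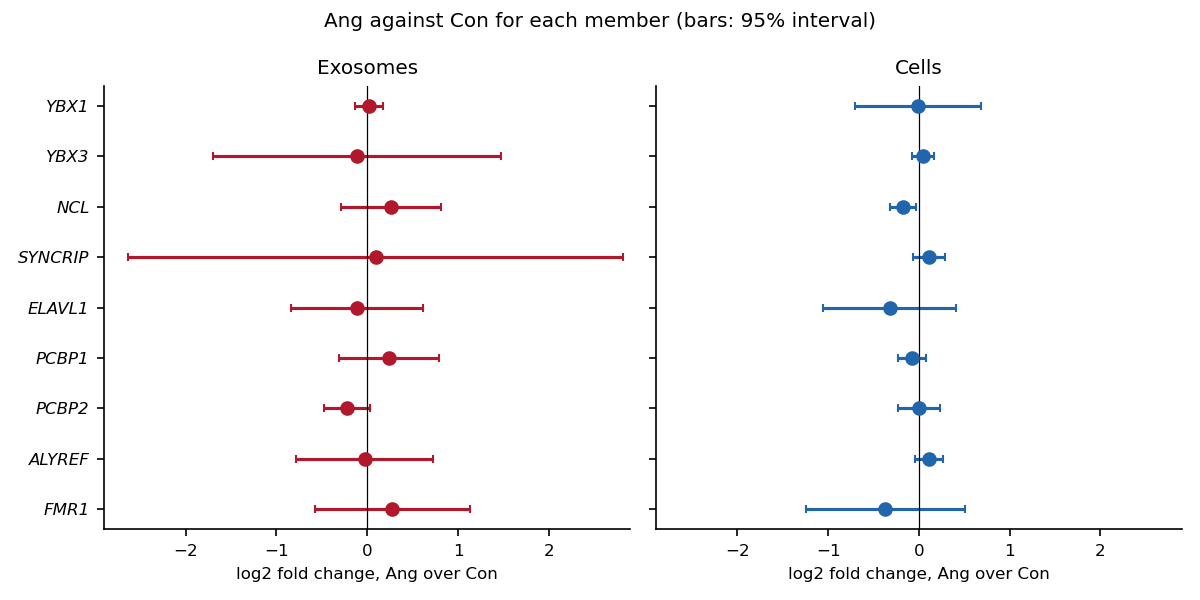
Fitted log2 fold change of Ang over Con for each mRNA in exosomes and in cells, with 95% intervals (n = 3 libraries per group). All exosome intervals include 0, those of SYNCRIP and YBX3 are the widest, and in cells the NCL interval (-0.32 to -0.035) is the only one that excludes 0, without an adjusted p under 0.05.

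The Ang against Con difference in exosomes minus that in cells was tested directly, and 0 of the 9 passed in edgeR, beside 3 of 11811 genes (0.0254%). At an unadjusted p under 0.05 there were 971 genes, none of them among the 9, and DESeq2 called 368 genes (3.12%) and none of the 9. NCL had the smallest unadjusted p of the 9 (0.0738), with log2 0.42, SE 0.22 (95% interval -0.047 to 0.89, edgeR adjusted p = 0.663). The largest value was that of FMR1, log2 0.63, SE 0.51, and the value of YBX1 was log2 0.016, SE 0.28. The others were PCBP1 at 0.30, ELAVL1 at 0.20, SYNCRIP at -0.035, ALYREF at -0.15, YBX3 at -0.17 and PCBP2 at -0.24, with SEs from 0.15 for PCBP2 to 0.98 for SYNCRIP.

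Genes that work with these proteins, or share their folds, were read as fixed lists in the exosome against cell comparison. Every direction below is exosomes over cells, and calls are edgeR adjusted p-values under 0.05 over all 11811 genes tested. No gene of these lists passed in Ang against Con within exosomes or cells, or in the difference between compartments. Several genes belong to more than 1 list (G3BP1, NSUN2, IGF2BP1, ALYREF, FXR1, FXR2, HNRNPK and HNRNPR), so the lists are not independent. With the trimmed mean scaling, 17.6% of all genes tested were higher and 19.5% were lower. With raw library totals, 4864 of 11811 genes passed in either direction. The counts below use the trimmed mean scaling and stand beside those shares. With raw library totals they became 0 higher and 2 lower for paralogs, 1 and 3 for hnRNP genes, 1 and 2 for export partners, 0 and 3 for FMR1 partners and 0 and 4 for 5-methylcytosine genes, and they stayed at 4 and 1 for nucleolar genes.

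Of 15 paralogs of the 9 genes, 10 were tested, 1 was higher, 1 was lower and the median log2 difference was -0.052. PCBP4, a further poly(C)-binding protein, was higher (log2 0.83, SE 0.24, adjusted p = 0.0187, edgeR), though not with raw library totals (adjusted p = 0.0622). FXR1 and FXR2, the closest relatives of FMR1, had values of log2 -0.089 and -0.27 that did not pass.

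All 11 hnRNP genes listed were tested, and 1 was higher and 2 were lower, with a median of -0.016 that turned to 0.018 with DESeq2 size factors. HNRNPC, which binds uridine tracts of nascent transcripts, was higher (log2 1.03, SE 0.16, adjusted p = 0.000364, edgeR). HNRNPH1, a binder of guanine-rich stretches in splicing, was lower (log2 -1.67, SE 0.22, adjusted p = 9.01e-05, edgeR). HNRNPD, which promotes decay of AU-rich mRNAs, was also lower (log2 -0.50, SE 0.11, adjusted p = 0.00409, edgeR). HNRNPA2B1, the hnRNP best known for microRNA sorting into exosomes, had a log2 value of -0.41 (SE 0.33) that did not pass.

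Other factors linked to RNA loading of vesicles went both ways, with 4 higher and 5 lower of 17 tested from a list of 18, and a median of -0.35. With raw library totals these counts were 2 higher and 7 lower. IGF2BP1, an mRNA-stabilising protein, was lower and nearly lost from the exosome libraries, with 0 to 1 reads in Ang exosomes and 1 to 13 in Con exosomes, against means of 106 CPM in Ang cells and 86.8 CPM in Con cells (edgeR adjusted p = 0.000196). At such counts its fitted fold depends on the prior count. G3BP1, a core protein of stress granules, was lower as well (log2 -1.27, SE 0.24, adjusted p = 0.00122, edgeR).

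The TREX and export partners of ALYREF included 3 higher and 2 lower of 15 tested, with a median of 0.029 that turned to -0.19 with raw library totals. ZC3H11A, a TREX-associated zinc finger protein, was lower (log2 -1.93, SE 0.45, adjusted p = 0.00542, edgeR), with means of 123 CPM in Ang exosomes and 16.5 CPM in Con exosomes against 182 and 164 CPM in Ang and Con cells. FYTTD1, an export adaptor, was higher (log2 0.99, SE 0.28, adjusted p = 0.0145, edgeR). THOC6, a subunit of the THO complex, was lower (log2 -0.69, SE 0.21, adjusted p = 0.0236, edgeR).

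Granule partners of FMR1 included 1 higher and 3 lower of 8 tested, with a median of -0.45. G3BP2, the relative of G3BP1, was lower (log2 -1.55, SE 0.18, adjusted p = 3.44e-05, edgeR), and so was CYFIP1, which links FMR1 to the cap-binding protein (log2 -1.07, SE 0.14, adjusted p = 6.87e-05, edgeR). CAPRIN1, a partner of G3BP1, was the higher one, but not with raw library totals (adjusted p = 0.0527, edgeR).

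Nucleolar partners of NCL included 4 higher and 1 lower of 11 tested from a list of 12, with a median of 0.33. TCOF1, a nucleolar factor of ribosomal gene transcription, was higher (log2 1.33, SE 0.37, adjusted p = 0.015, edgeR), as was NHP2, a protein of box H/ACA snoRNPs (log2 0.88, SE 0.16, adjusted p = 0.000855, edgeR). RRN3, an initiation factor of RNA polymerase I, was lower (log2 -0.78, SE 0.25, adjusted p = 0.0254, edgeR). None of the 11 had as large a log2 value as NCL.

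Genes of 5-methylcytosine marking and YBX1 partners included 1 higher and 4 lower of 6 tested, with a median of -0.83. IGF2BP3, a relative of IGF2BP1, was lower (log2 -0.90, SE 0.20, adjusted p = 0.00347, edgeR), beside IGF2BP1, G3BP1 and the 5-methylcytosine writer NSUN2. YBX1 was higher in exosomes than in cells, while 4 of the 6 listed genes were lower.

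**Figure D5:**
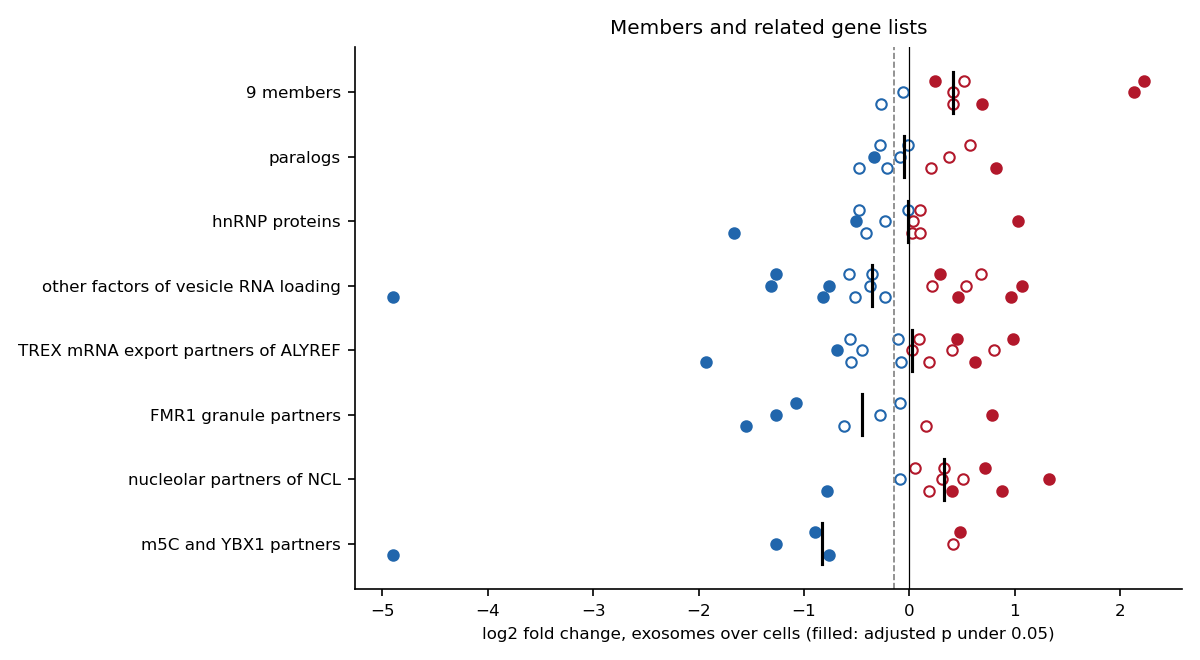
Fitted log2 fold change of exosomes over cells for the 9 mRNAs and 7 related gene lists (points: genes; filled: edgeR adjusted p under 0.05; black bars: list medians; dashed line: median of all genes tested, -0.15). YBX1 and NCL lie to the right of every other point, the medians run from -0.83 to 0.41, and the far left point, IGF2BP1, has a fitted value that depends on the prior count.

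For each of the 9 mRNAs the gene with the most similar profile over the 12 libraries was found by the root mean square distance of gene-centred log2 CPM among the other 11810 genes, as a description only. NCL was nearest to SLC7A5 (distance 0.119), PCBP1 to RPS7 (0.115), PCBP2 to H3-3B (0.109) and YBX1 to BASP1 (0.258). The nearest to YBX3 was BICD2 (0.166), to ALYREF PLCD3 (0.144), to ELAVL1 ELMO2 (0.21), to FMR1 PTPN23 (0.269) and to SYNCRIP MINDY3 (0.307). The median distance to all genes ran from 0.747 for PCBP2 to 1.51 for SYNCRIP. Among the 9 themselves, ALYREF was the nearest to PCBP1 (0.243), PCBP2 (0.27) and ELAVL1 (0.327), and YBX1 and NCL were nearest to each other (0.328). SYNCRIP stood farthest, at 1.32 from its nearest, ALYREF.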

How the data were processed

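RNA of AC16 exosomes and cells was measured in 12 libraries, grouped by the labels. The authors deposited raw counts of reads for each gene and for each back-splice junction. GRCh38, HISAT2 and StringTie stand in the submitters' processing notes without roles; the counter, strand use and annotation release were not given in the sources used here. Symbols were matched for 11963 exosome and 15365 cell genes; positions came from GENCODE release 29 and promoters from RefSeq GRCh38.p14 (8 of 9 genes matched).

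Counts were tested with edgeR 4.0.16 in R 4.3.3 (quasi-likelihood test with trimmed mean scaling; filterByExpr with minimum count 10 and minimum total 15). Tests were two-sided, with Benjamini-Hochberg adjustment over all genes tested and a threshold of 0.05. Exosomes against cells and the difference between compartments used 12 libraries, and Ang against Con the 6 of a compartment. CPM values carry the trimmed mean scaling. Ratios were compared with exact permutation tests (SciPy 1.17.1). Alternatives were DESeq2 1.42.0, its size factors, raw totals, no filter, other sets of libraries, a replicate block and leaving out each library. The edgeR script was tested on simulated data. Replicates differed beyond sampling noise, and none was a duplicate. From each list up to 3 passing genes with the largest absolute difference were named by rule; CD68, CAPRIN1, PDCD6IP, FXR1, FXR2, HNRNPA2B1 and NSUN2 were added after their values were seen. Some genes that the rule names are not reported here. The 9 genes, lists and tests were chosen with earlier results of these data known.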

Additional observations from a re-analysis of the deposited data

Results flagged for a closer look

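Back-splice junction reads, which mark circular RNAs, lie outside the gene counts used above. Junctions within the 9 genes made up 1 of 939 listed in exosomes and 6 of 5179 in cells. The 5 junctions that had reads in an Ang library and 0 in all Con libraries of their compartment are given here, each from a single library, so they show nothing about Ang against Con. In exosomes, an NCL junction from 231460547 to 231460836 on chromosome 2 had 5 reads in the third Ang library, on the strand opposite to the gene. In cells, an NCL junction from 231460314 to 231460477 had 3 reads in the second Ang library. A SYNCRIP junction from 85618818 to 85624112 on chromosome 6 had 3 reads in the first Ang cell library. A YBX1 junction from 42696711 to 42700923 on chromosome 1 had 3 reads in the third Ang cell library, and a PCBP2 junction from 53469151 to 53471319 on chromosome 12 had 2 reads in the first Ang cell library. Both of these lay on the strand opposite to their gene.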

How the results depend on the processing

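Of the 9 genes, exosomes against cells gave 4 past the threshold as reported and 3 with raw totals or the replicate block. DESeq2 gave 5, and leaving out single libraries gave 4 to 5. Among all 11811 genes tested, 4380 passed as reported (37.1%), 4864 with raw totals and 3114 with the replicate block. DESeq2 called 5713 of 11795 genes (48.4%). Within Ang the count of the 9 was 3, and 3 to 4 with libraries left out. Within Con it was 3, with 2 under raw totals or the replicate block, 4 with DESeq2 or its size factors, 2 to 5 with libraries left out and 5 (YBX3 and PCBP1 added) in the 6 Con libraries alone. The replicate block and every other alternative left 0 of the 9 in Ang against Con and in the difference between compartments. Of 846 values of the 9 genes under alternatives, 776 kept their direction and side of the threshold. The YBX1, NCL and PCBP1 calls averaged over both labels held in every alternative.

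The PCBP2 difference lost its call with the replicate block (log2 0.25, adjusted p = 0.0846 by edgeR), and in Ang raw totals gave -0.084. ALYREF passed with DESeq2 (adjusted p = 0.0109), as did PCBP1 within Con (adjusted p = 3.68e-05 by DESeq2, 0.048 by edgeR with DESeq2 size factors). Values near 0 changed sign without passing. For Ang against Con in cells, PCBP2 was -0.00072 without the filter and -0.0014 with the replicate block, and YBX1 was 0.0017 with the block. The block gave differences between compartments of -0.00042 for YBX1 and 0.54 for SYNCRIP. With single libraries left out, log2 values that crossed 0 ranged as follows. Exosomes over cells gave FMR1 -0.21 to 0.15, SYNCRIP -0.48 to 0.0098, in Ang FMR1 -0.039 to 0.66 and in Con SYNCRIP -0.67 to 0.31. Ang over Con in exosomes gave YBX1 -0.012 to 0.067, YBX3 -0.41 to 0.35, SYNCRIP -0.47 to 0.51, ELAVL1 -0.21 to 0.050, ALYREF -0.23 to 0.23, FMR1 -0.017 to 0.50. In cells it gave YBX1 -0.22 to 0.21, PCBP2 -0.058 to 0.086, and the difference between compartments YBX1 -0.19 to 0.24, YBX3 -0.48 to 0.29, SYNCRIP -0.60 to 0.38, ELAVL1 -0.0090 to 0.48, ALYREF -0.36 to 0.12. The cause of these changes was not tested.

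Among all genes, DESeq2 called 4177 within Con and 4127 within Ang, against 2412 and 2571 by edgeR. With the replicate block 1351 and 1510 passed, with raw totals 2702 and 2891, and with DESeq2 size factors 2416 and 2547. In the 6 Con libraries alone 2395 of 11662 genes passed. DESeq2 called 368 genes for the difference between compartments, against 3 by edgeR. For Ang against Con in exosomes, 22 passed with all 12 libraries in the fit, 3 without the filter and 0 with the block. No pairing by replicate number was seen: deviations of same-numbered libraries correlated at -0.039 to 0.016, and 4 of 12 were highest with their own number. These correlations cannot show whether same-numbered libraries came from the same culture. Exosome libraries held 30 to 60 reads of ELAVL1, 44 to 116 of ALYREF and 26 to 58 of FMR1. For SYNCRIP they held 7 to 240, with the 7 in a single library. Whether these read numbers limited what could be detected was not tested.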

Other observations

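Some junctions in the 9 genes were found in Con cells only. A SYNCRIP junction from 85618818 to 85619417 on chromosome 6, on the strand of the gene, had 8 reads in the second Con cell library and 3 in the third, and was the only junction of the 9 genes with reads in more than 1 library. A PCBP2 junction from 53463997 to 53464284 on chromosome 12 had 3 reads in the first Con cell library, on the opposite strand. No junction of YBX3, ELAVL1, PCBP1, ALYREF or FMR1 was listed in exosomes or cells.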
